A study of Mus musculus with 8 samples.

Results

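PRDM16-enriched regions in the embryonic mouse cortex were examined at 10 genes known as PRDM16 targets or partners in other tissues, out of 21887 protein-coding genes of the RefSeq annotation. The 10 genes were Ppargc1a, Ppara, Pparg, Cebpb, Ebf2, Zfp516, Ucp1, Cidea and Dio2 of the brown fat programme, and Hgf from work on neural stem cells. A region was assigned to a gene when its summit, the position of highest enrichment, lay in the gene body, or within 100 kb of the nearer gene end with no closer protein-coding gene. By this rule the genes held 13 of 13852 regions in wild-type (WT) replicate 1 and 51 of 26652 in WT replicate 2. In conditional knockout (cKO) replicates 1 and 2 they held 11 of 4553 and 5 of 3088.

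PRDM16 is a zinc-finger transcription factor that drives brown fat identity, where it works with C/EBPβ, PPARγ, PGC-1α, EBF2 and ZFP516 to switch on genes of heat production. In the embryonic cortex PRDM16 is made by radial glia, the stem cells from which projection neurons arise. Many of its partners in fat are also known as general regulators of metabolism or of cell fate, and some of them act in neurons and glia.

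Chromatin immunoprecipitation and sequencing (ChIP-seq) with a PRDM16 antibody was run on whole cortex lysates of mouse embryos at stage E15.5. Each genotype had 2 ChIP libraries. Both carried Prdm16 flox/flox alleles, and the cKO added Emx1Ires-Cre, which expresses Cre in the dorsal telencephalic lineage. Cells of other origin in the cortex, such as vessel cells, microglia and neurons born in the ventral telencephalon, keep intact floxed alleles. The labels do not say whether the replicates came from separate embryos or from pools, so the spread between them may be technical, and p-values measure only the spread between these libraries.

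The enrichment of a region is the authors' fold, the read pileup at the summit over the local background, with 1 read added to each. The libraries differed in local background. Its lowest value was 0.777 and 1.78 reads for WT replicates 1 and 2, against 2.95 and 2.52 for cKO replicates 1 and 2. Sequencing depth itself was not measured here. At the median background of each library, the smallest fold that could be called was 3.53 and 3.01 for WT replicates 1 and 2, against 3.18 and 3.29 for cKO replicates 1 and 2. At the targeted gene, Prdm16, the lists held 16 and 22 regions in WT and 2 and 2 in cKO; peak lists do not measure its expression. Regions called WT-only, found in both WT lists and overlapping none of either cKO list, were assigned to the dorsal telencephalon marker genes Emx1, Emx2, Pax6, Lhx2 and Tbr1. They were assigned to 1 of 3 endothelial markers, 0 of 3 microglia markers and 0 of 4 brown adipocyte markers (Ucp1, Cidea, Cox7a1 and Cox8b). Of these 4 brown adipocyte markers, 3 had no region in any list. The shares over all genes were 16.6% for a WT-only assignment and 56.1% for no region. Lists of 3 or 4 genes are too short to tell counts of 0 or 1 from the 16.6%, so cell type was not tested by them. The WT libraries carry another library identifier than the cKO libraries, so genotype and whatever that identifier marks cannot be told apart.

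Of the 10 genes, 4 had a WT-only region: Ebf2 with 5, and Dio2, Ppara and Zfp516 with 1 each. Among all protein-coding genes, 16.6% had one. Both WT lists together left 1 of the 10 genes, Ucp1, without any region, and it had none in the cKO lists either; 56.1% of all genes had no region in any list. By library, WT replicate 1 held a region at 4 of the 10 genes, against 23.6% of all genes, and WT replicate 2 at 9, against 34.5%. For cKO replicate 1 it was 5, against 16.4% of all genes, and for cKO replicate 2 it was 3, against 11.8%. Ppargc1a, Pparg, Cebpb, Cidea and Hgf, 5 of the 10, had regions in WT replicate 2 and none in WT replicate 1, against 14.1% of all genes. The count of 4 genes thus rests on the shorter WT list. Without WT replicate 1 it was 9, and the share of all genes rose to 32.2%. The definition is looser there, as a region then needs to be in WT replicate 2 only. The annotated length of the genes ran from 1.52 kb for Cebpb to 662 kb for Ppargc1a, and its part in these shares was not tested. In a lysate of whole cortex, enrichment in fewer cells and weaker enrichment per cell cannot be told apart.

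**Figure D1:**
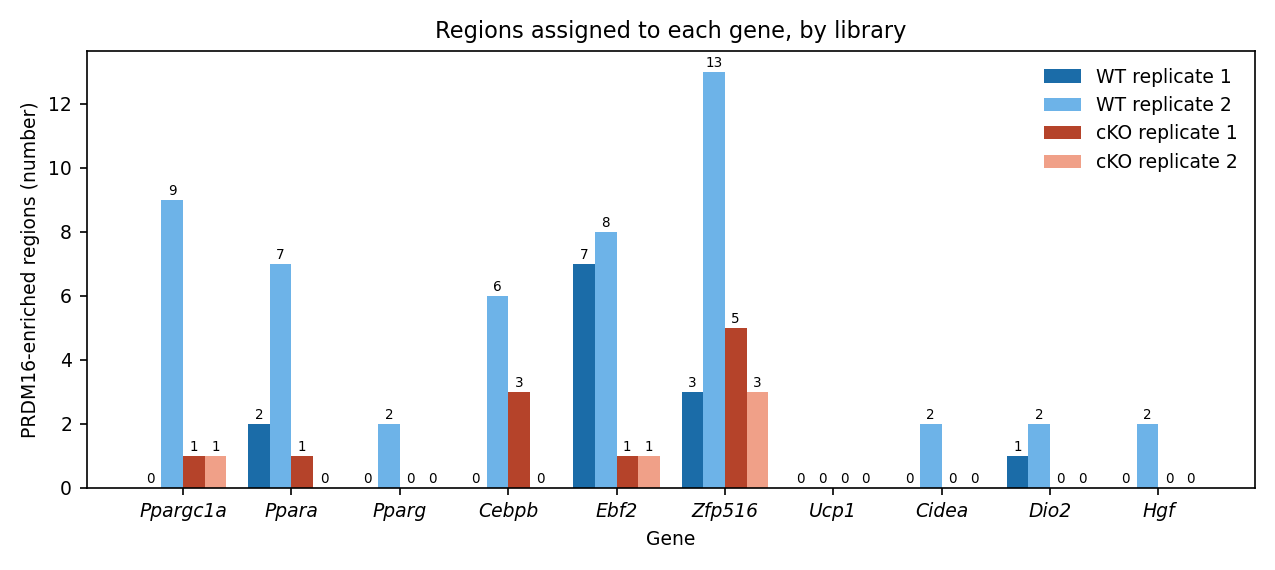
Number of PRDM16-enriched regions (vertical axis) assigned to each of the 10 genes (horizontal axis) in the 2 WT and 2 cKO libraries; the number stands above each bar. WT replicate 2 has the most regions at 9 of the genes, Zfp516 leads with 13, and Ucp1 has 0 in all 4 libraries.

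The number of regions at the 10 genes was 13 and 51 for WT replicates 1 and 2, against 11 and 5 for cKO replicates 1 and 2. Both WT values lay above both cKO values, but WT replicate 1 lay close to cKO replicate 1. The mean was 32.0 ± 26.9 for WT and 8.0 ± 4.24 for cKO (SD, n = 2 each; exact two-sided permutation test, p = 0.333, the smallest that 2 libraries against 2 allow). As a share of its own list, the 10 genes took 0.0938% (exact binomial 95% interval 0.05 to 0.16) of WT replicate 1 and 0.191% (0.143 to 0.252) of WT replicate 2. In cKO replicates 1 and 2 the share was 0.242% (0.121 to 0.432) and 0.162% (0.0526 to 0.377). These intervals cover counting error only. The shares of the 2 genotypes overlapped, with means of 0.142 ± 0.0687% for WT and 0.202 ± 0.0566% for cKO (SD, n = 2 each; exact two-sided permutation p = 0.667). When each list was reduced to its 3088 regions with the lowest p-values, the count turned in direction, to 2 and 2 for WT replicates 1 and 2, against 9 and 5 for cKO replicates 1 and 2 (exact two-sided permutation p = 0.333). The direction of the count therefore depended on where the lists were cut. The cut kept all regions of cKO replicate 2 but only the most significant ones of the longer lists. List length and stringency thus changed together, and their parts were not tested.

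The genome assigned to the 10 genes came to 2.44 Mb, of 1910 Mb assigned to all protein-coding genes. WT replicate 1 held 5.32 regions per Mb at the 10 genes, against 5.90 over all genes. In WT replicate 2 the density was 20.9 at the 10 genes and 11.5 over all genes. In cKO replicates 1 and 2 it was 4.50 and 2.05 at the 10 genes, against 2.26 and 1.52 over all genes. WT replicate 1 was the only one of the 4 libraries in which the 10 genes held fewer regions per Mb than the rest.

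**Figure D2:**
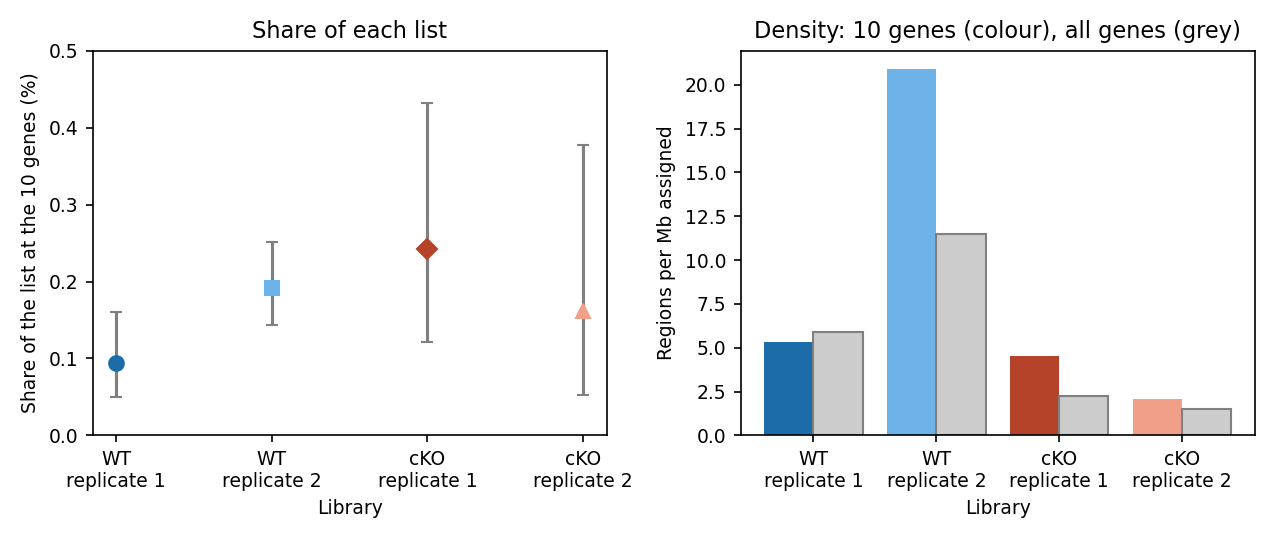
Left, the share of each library's list (in percent) assigned to the 10 genes, with exact binomial 95% intervals; right, regions per Mb of assigned genome at the 10 genes (coloured bars) and over all protein-coding genes (grey bars). The shares run from 0.0938% in WT replicate 1 to 0.242% in cKO replicate 1, and the WT and cKO values overlap.

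Ebf2 encodes an early B-cell factor that marks brown fat precursors and opens brown fat genes for PPARγ, and it is also a neuronal differentiation factor. It lies on chromosome 14 from 67233292 to 67430952 (mm10) and held 7 and 8 regions in WT replicates 1 and 2, with 1 in each cKO list. The strongest WT-only region, in the gene body from 67290848 to 67291757, had folds of 10.4 and 10.3 in the WT replicates. Its summits lay 30 bp apart, with a pileup of 26 and 43 reads. This region ranked high in both lists by fold, at percentile 83.0 of WT replicate 1 and 87.7 of WT replicate 2.

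Further into the Ebf2 body, a region from 67344456 to 67345119 had folds of 6.54 and 10.1, with summits 4 bp apart. The next, from 67361165 to 67361497, had 6.12 and 7.49, with summits 20 bp apart. A broader stretch of 1490 bp, from 67388292 to 67389781, held 2 peaks in each WT list. WT replicate 1 was strongest at the first (10.4 against 5.61 at the second) and WT replicate 2 at the second (7.69 against 5.70 at the first). The fifth WT-only region lay 79623 bp outside the gene and was weak, with folds of 4.62 and 3.29. Single WT lists added a 7.88-fold region in the body in replicate 1, and regions of 5.80 in the body and 4.22 outside it in replicate 2.

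Both cKO lists held 1 region at Ebf2, 21.4 kb outside the gene, where neither WT list overlapped. Its folds were 7.28 and 4.79, with summits 4 bp apart. The local background there was 6.70 and 5.26 reads, above the cKO medians of 3.72 and 3.26. The 4.22-fold region of WT replicate 2 lay beside it, with a summit 21124 bp outside the gene against 21419 and 21415 bp in the cKO lists.

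Zfp516, a zinc-finger gene whose product binds PRDM16 and the Ucp1 promoter in brown fat, had the most regions of the 10 genes. It lies on chromosome 18 from 82909688 to 83005314 and held 3 and 13 regions in WT, with 5 and 3 in cKO. Zfp516 thus held 8 of the 16 cKO regions at the 10 genes. WT and cKO lists overlapped at 5 of its sites: 1 site was in all 4 lists, 1 in WT replicate 2 and both cKO lists, and 3 in WT replicate 2 and cKO replicate 1.

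The site in all 4 lists lay 97071 bp outside Zfp516, with folds of 5.07 and 3.66 in WT, against 6.01 and 5.30 in cKO. It was just inside the 100 kb rule; just outside the rule, Zfp516 had summits at 111100 bp in WT replicate 2 (fold 7.19), at 111398 bp in cKO replicate 1 (9.62) and at 111420 bp in cKO replicate 2 (5.69). Zfp516 was the 1 gene of the 10 with a region of both WT lists that was also in a cKO list, against 3.22% of all genes. Within the gene body, 44.4 kb from its lower-coordinate end, a site had 7.59 in WT replicate 2, with 5.86 and 3.37 in cKO. The WT-only region of Zfp516 lay 1.59 kb inside the same end, with folds of 7.99 and 5.15. WT replicate 2 held another peak in it, of 3.63, whose summit was nearer to that of WT replicate 1 than the 5.15-fold summit was. WT replicate 1 also held a 4.24-fold region at that gene end, and WT replicate 2 a 3.91-fold one.

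Cebpb encodes C/EBPβ, the leucine-zipper factor with which PRDM16 starts the brown fat programme in precursor cells. It is short, 1.52 kb on chromosome 2 from 167688915 to 167690432, and no summit lay in its body. WT replicate 2 held 6 regions, all on the side beyond its upper-coordinate end, 36982 to 87725 bp away, with folds of 3.69 to 5.24. In cKO replicate 1 there were 3 regions, with summits on the other side, 66, 3640 and 8807 bp before the gene. Their folds were 4.40, 5.31 and 4.87. The nearest, from 167688711 to 167689003, reached into the gene. WT replicate 1 and cKO replicate 2 held no region at Cebpb. No site at Cebpb was found in more than 1 list.

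**Figure D3:**
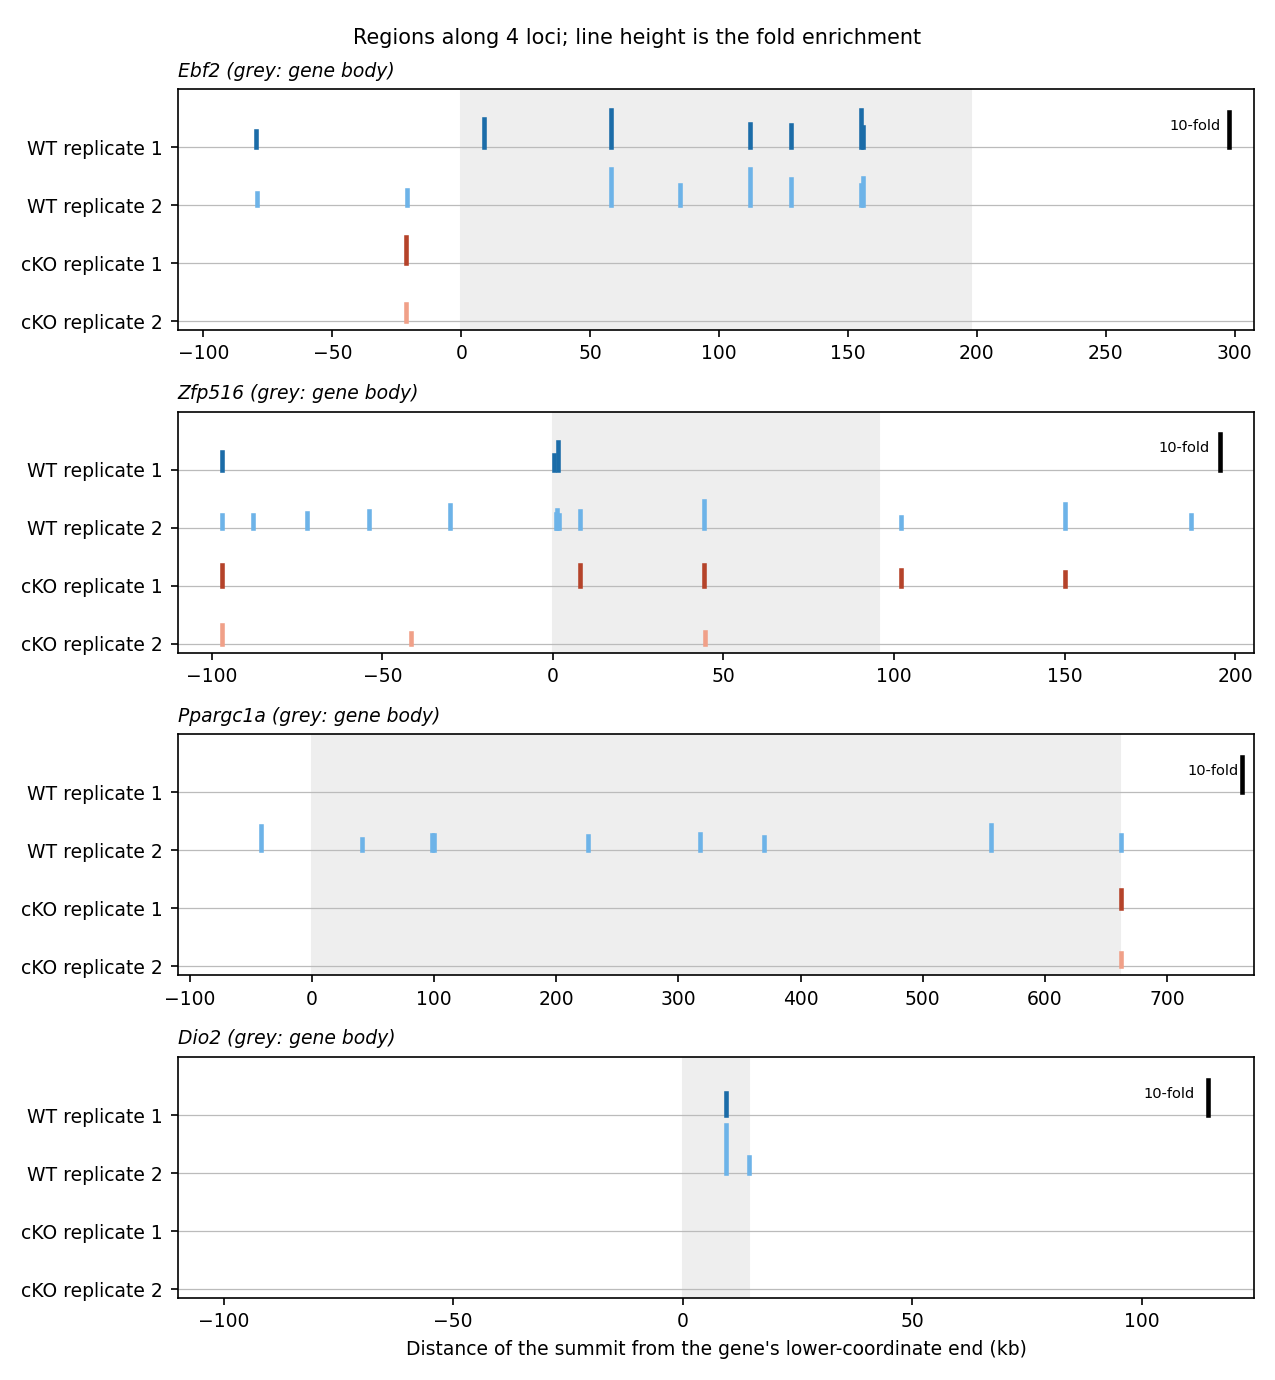
Regions along Ebf2, Zfp516, Ppargc1a and Dio2, 1 row per library; the horizontal axis is the summit's distance in kb from the gene's lower-coordinate end, grey marks the gene body, and line height is the fold enrichment with a 10-fold bar for scale. Ebf2 has 4 body sites found in both WT rows and in neither cKO row, while the Zfp516 site farthest before the gene is in all 4 rows and the Ppargc1a site at its upper end is in 3.

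Ppara and Pparg encode nuclear receptors that bind fatty acids. PPARα drives fatty acid oxidation, and PPARγ is the main regulator of fat cell formation. Ppara, on chromosome 15 from 85734910 to 85806851, held 2 and 7 regions in WT, with 1 and 0 in cKO, all outside the gene on the side of its tabled start. Its WT-only region, 32193 bp outside, had folds of 6.41 and 6.07 with summits 63 bp apart. Each WT list held another region nearby, of 6.19 in replicate 1 and 5.94 in replicate 2, at 25629 and 24508 bp, which did not overlap. A site 63.8 kb out had 3.53 in WT replicate 2 and 6.26 in cKO replicate 1. When non-coding genes could take regions, Ppara had no WT-only region. Regions at 79030 to 81750 bp from Ppara, 1 in WT replicate 1 and 3 in WT replicate 2, were closer to Wnt7b, which encodes a Wnt ligand of the cortex.

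Pparg, on chromosome 6 from 115360879 to 115490404, had 2 regions, both in its body and both in WT replicate 2, with folds of 5.24 and 4.86. The table gave 3 start sites for Pparg, and the 5.24-fold summit lay 10.3 kb before the third. The summit of the 4.86-fold region lay 47.6 kb past it. The nearest summit of WT replicate 1 was 234 kb away.

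Ppargc1a encodes PGC-1α, the coactivator of mitochondrial biogenesis and of heat production. It lies on chromosome 5 from 51454249 to 52115853. It held 9 regions in WT replicate 2 and 0 in replicate 1, where the nearest summit was 251 kb away. The 9 folds ran from 3.29 to 7.19 with a median of 4.47, the highest in the gene body 556 kb from its lower-coordinate end, and 6.83 beyond that end. Both cKO lists held a region at the upper end of the annotated gene, which is its 5′ side, with folds of 5.32 and 3.71, 324 and 268 bp outside. WT replicate 2 had a 4.29-fold region there too, 142 bp outside. The start site in the promoter table is another, further inside the gene. Ppargc1a, Ebf2 and Zfp516 were the 3 of the 10 genes with a region in both cKO lists, against 6.83% of all genes.

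Ucp1, Cidea and Dio2 are effectors of brown fat. UCP1 makes heat by uncoupling respiration, CIDEA sits on lipid droplets, and the DIO2 enzyme activates thyroid hormone, a reaction that glia carry out in the brain. Promoter windows of 250 bases before the start (RefSeq, GRCm38.p6, which is mm10) were found for 7 of the 10 genes, 10 windows in all; Ebf2, Zfp516 and Cidea had no entry. With 50 bases after the start included, a region lay over a member's promoter in 2 cases: Dio2 in WT replicate 2 and Cebpb in cKO replicate 1. Over all 32851 tabled promoters the share with a region was 3.33% and 6.56% for WT replicates 1 and 2, against 4.27% and 3.07% for cKO replicates 1 and 2. The promoters of Dio2 and Cebpb are shown with the bases under the region in capitals, and that of Ucp1, which had no region, in lower case, each 5′ to 3′ along the gene. They are chr12:90739039-90739288 (minus strand), chr2:167688665-167688914 (plus strand) and chr8:83290098-83290347 (plus strand).
Dio2: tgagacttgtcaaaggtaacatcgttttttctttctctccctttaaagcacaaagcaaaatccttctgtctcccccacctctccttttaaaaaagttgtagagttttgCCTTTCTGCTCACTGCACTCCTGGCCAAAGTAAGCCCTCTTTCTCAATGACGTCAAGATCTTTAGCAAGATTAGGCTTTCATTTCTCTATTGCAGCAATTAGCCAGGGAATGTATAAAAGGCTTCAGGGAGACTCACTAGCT
Cebpb: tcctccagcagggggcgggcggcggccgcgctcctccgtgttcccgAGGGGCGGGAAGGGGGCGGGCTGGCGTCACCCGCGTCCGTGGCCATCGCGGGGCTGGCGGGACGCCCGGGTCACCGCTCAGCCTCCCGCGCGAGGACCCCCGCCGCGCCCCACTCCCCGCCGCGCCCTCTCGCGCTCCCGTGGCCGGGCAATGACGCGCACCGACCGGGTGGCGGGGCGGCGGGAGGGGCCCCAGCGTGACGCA
Ucp1: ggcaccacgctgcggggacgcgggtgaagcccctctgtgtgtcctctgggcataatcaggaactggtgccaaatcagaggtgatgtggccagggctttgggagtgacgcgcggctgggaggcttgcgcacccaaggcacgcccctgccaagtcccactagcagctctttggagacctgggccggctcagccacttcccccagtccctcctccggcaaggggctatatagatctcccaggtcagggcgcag

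In the Dio2 window 142 of the 250 bases were under the region of WT replicate 2, and in the Cebpb window 204 were under that of cKO replicate 1. Short motifs were searched on both strands. For basic helix-loop-helix factors these were CANNTG and its special case CAGATG, in 66.2% and 14.4% of all tabled promoters. For nuclear factor I the search used TTGGC (41.5%) and the full palindrome that contains it (0.0365%). GATA and EVI1 family sites were searched as AGATAA (9.99%). The SOX forms were ACAAAG (16.5%) together with ACAATG (10.7%), and the homeobox core was TAATTA (4.84%). The remaining searches were for the C/EBP form TTGCNNCAA (1.74%), the direct repeat of PPAR with RXR (0.0335%) and the EBF palindrome (0.779%). The Dio2 window had TTGCNNCAA at 53 to 45 bases before the start, inside the region. It also had TTGGC at 119 to 115 bases, inside the region, and ACAAAG at 201 to 196 bases, outside it. The Cebpb window had no match to any of these, and the Ucp1 window had TTGGC only, at 183 to 179 and 105 to 101 bases. The GC content was 41.6% for Dio2, 81.6% for Cebpb and 64.8% for Ucp1, with a median of 52.4% over all tabled promoters.

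The strongest single member region lay in the body of Dio2. The gene runs from 90724552 to 90739038 on chromosome 12, and the WT-only region from 90733681 to 90734196 had its summits 5058 and 5017 bp after the start. Its folds differed between the WT replicates, 6.33 in replicate 1 and 13.7 in replicate 2, at percentiles 49.4 and 93.5 of their lists. The pileup was 14 and 37 reads. The promoter region of Dio2 had 4.51 in WT replicate 2 alone, with its summit 13 bp after the start. Neither cKO list had a region at Dio2, and their nearest summits were 851 and 745 kb away.

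Ucp1, on chromosome 8 from 83290348 to 83298456, had the smallest assigned stretch of the 10 genes, 24 kb, because other genes are close on either side. The nearest summits lay 124782 and 124814 bp away in the WT replicates, both at Tbc1d9, with folds of 5.07 and 3.36. In the cKO replicates they lay 268 and 268 kb away, at Ndufb7. Cidea, on chromosome 18 from 67343564 to 67367794, had 2 regions in WT replicate 2, of 5.03 in the body and 5.11 at 2321 bp outside, and none in the other 3 lists. WT replicate 1 had its nearest region 64.9 kb from Cidea, closer to Impa2.

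Hgf encodes hepatocyte growth factor, the secreted ligand of the MET receptor. It lies on chromosome 5 from 16553495 to 16619439 and had 2 regions in WT replicate 2, of 6.18 in the body, 24.7 kb after the first tabled start, and of 4.22 at 21.4 kb before it. WT replicate 1 had its nearest summit 419 kb from Hgf, and those of cKO replicates 1 and 2 were 2040 and 5120 kb away. As at Pparg and Cidea, every region at Hgf was in WT replicate 2 alone.

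The regions at the 10 genes were of low to middling strength in WT, and the cKO libraries differed from each other. In WT replicate 2 the median fold of the 51 regions was 4.75, against 5.40 for the whole list, and 35 of the 51 were below the list's median. In WT replicate 1 the median of the 13 was 6.33, against 6.43 for the list. In cKO replicate 1 the 11 regions had a median of 5.32, above the 4.68 of their list, and in cKO replicate 2 the 5 had 3.71, below 4.96. Of the 51 regions of WT replicate 2, 11 (21.6%) overlapped a region of WT replicate 1, against 38.7% over the whole list. The 11 had a median fold of 6.07 and the 40 others of 4.53. Of the 40, 37 had a fold above 3.53, the limit of WT replicate 1 at its median background. A fold above 4.22, the 5th percentile of the folds that library called, was found at 25. The median background was 0.985 reads in WT replicate 1 and 2.32 in WT replicate 2. Because 1 read is added to each term, the same ratio of reads gives a lower fold at the lower background. Whether the 40 could have been called in WT replicate 1 was therefore not tested. In the other direction, 10 of 13 regions of WT replicate 1 (76.9%) were in replicate 2, against 78.2% over the list.

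**Figure D4:**
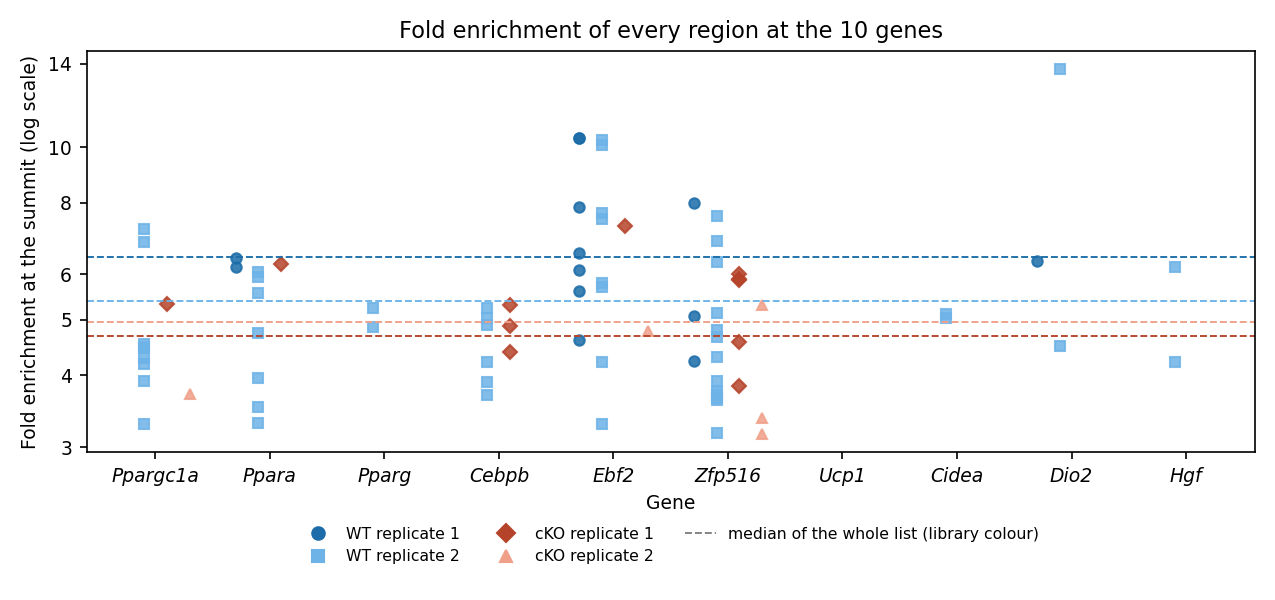
Fold enrichment at the summit (log axis) of every region at the 10 genes, 1 point per region, with colour and shape for the library; dashed lines are the medians of the whole lists. Points of 10-fold and above are at Ebf2 and Dio2 only, and most points of WT replicate 2 lie below its list median of 5.40.

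The regions of the 4 lists merged into 57 sites at the 10 genes. Of these, 34 (59.6%) were in WT replicate 2 alone, against 46.5% of all 33210 sites of the genome. In both WT lists and no cKO list were 8 of the 57, against 27.8% of all sites. Both genotypes shared 7 (12.3%, against 6.20%), of which 5 were at Zfp516, 1 at Ppara and 1 at Ppargc1a. The mean WT folds of the 8 WT-only regions were above both cKO limits of 3.18 and 3.29; the lowest single WT fold, 3.29 at the outer Ebf2 region, was at that limit. When the lower WT fold was divided by 2, 2 of the 8 lay above both limits, both in the Ebf2 body. In 1 of these, the 1490 bp stretch, the folds of 10.4 and 7.69 came from different peaks, with summits 772 bp apart. Peak by peak, the WT folds there were 10.4 and 5.70 at the first, and 5.61 and 7.69 at the second. The lower fold of either pair, divided by 2, lay below both limits. At the other 6 of the 8, the lower WT fold divided by 2 lay below at least 1 of the limits. These limits hold at the median background of the cKO libraries. Because 1 read is added to pileup and background, a halved fold is not a halved ratio of reads. Whether a halved ratio would have been detectable was not tested.

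Member regions lay mostly away from gene ends. Summits within 1 kb of an end of the gene made up 1 of 13 in WT replicate 1 and 3 of 51 in WT replicate 2, against 12.2% and 11.8% of all assigned regions. In the cKO they made up 2 of 11 and 1 of 5, against 41.5% and 41.7%. More than 1 kb outside the gene lay 4 of 13 and 26 of 51 in WT, against 33.4% of all assigned regions in either list. In cKO it was 7 of 11 and 3 of 5, against 25.2% and 25.0%.

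Other regulators of the brown fat programme were compared with its effectors. Of 24 regulators and partners, 12 had a WT-only region, against 16.6% of all genes. The highest were Tle3, a Groucho corepressor gene that opposes PRDM16 in fat, at 17.4 and 33.6 in the WT replicates (78725 bp outside the gene), and Prdm16 itself at 23.6 and 25.6. Nfia, a nuclear factor I gene of glia and brown fat, had 18.2 and 23.4 in its body. Esrrg, an oestrogen-related receptor gene, had 7.29 and 15.8. Of the 24, 4 had no region in any list (Ehmt1, Med1, Irf4 and Esrra), against 56.1% of all genes. Of 17 thermogenic, lipid and adipocyte effectors, 1 had a WT-only region, the beta-adrenergic receptor gene Adrb1 at 6.19 and 8.97 (19501 bp outside). Another 14 had no region in any list, against 56.1% of all genes. Of 9 genes of HGF signalling, 1 had a WT-only region, the docking protein gene Gab1 at 10.3 and 15.9 in its body, and 5 had no region. These HGF counts were near the shares of all genes, 16.6% and 56.1%. Lists of equal length left 4 of the 24 regulators and 0 of the 17 effectors with a WT-only region, against 4.99% of all genes on those lists. The lists were not matched for gene length or for open chromatin.

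The genes most like Ebf2 and Dio2 were found by the highest fold in each of the 4 libraries, as the Euclidean distance of log2(fold + 1). Nearest to Ebf2 were Arhgap40 (distance 0.209, with highest folds of 11.3 and 11.1 in WT and 6.78 and 5.31 in cKO), Klf7 (0.236) and Hmcn2 (0.266). Nearest to Dio2 were Csrp2 (0.013, with 6.33 and 13.5 in WT and no region in cKO), Ufm1 (0.0423) and Sec61g (0.0438). With 4 libraries this is a description of similar lists of values.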

How the data were processed

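The peak lists of 4 PRDM16 ChIP libraries were analysed, and the inputs were not used here. Per the submitters' processing notes, the tools were Bowtie2 2.2.8, MACS2 2.1.1, cutadapt and FastQC on mm10; their roles and settings are not given in the sources used here. The authors deposited 1 narrowPeak list per library, so replicates were not pooled. In the deposited lists the fold enrichment is a ratio, and significance is given as −log10 of the p-value and of the q-value; the deposited whole-number score is 10 times the latter and was not used. The largest q-value kept by the authors was 0.0440 to 0.0491.

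Only regions of the autosomes, X and Y entered. No regions overlapped within a list, and regions overlapped between lists when they shared at least 1 bp. Gene bodies came from the RefSeq table of GRCm38.p6, and a summit inside several bodies counted for each. Pileup and background were solved from fold and p-value (Poisson, tolerance 0.0005 on the log10 scale), except for 12 and 62 highly significant regions of WT replicates 1 and 2. Assigned genome was counted on a 1 kb grid. Exact permutation tests were over libraries. Python 3.11.15, numpy 2.4.6, pandas 2.3.3 and scipy 1.17.1 were used, and the functions were tested on simulated data.

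The members, supporting lists and tests were chosen with earlier results of these data known. Named were the 10 genes, Prdm16, at most 4 genes per supporting list with the highest mean WT fold among those with a WT-only region, the gene taking a region within 100 kb of a member, and the 3 genes most like each of the 2 strongest members. Tbc1d9 and Ndufb7, and genes with no region, were named after their values were seen. A marker gene and a gene near a member are not reported here. Alternatives changed the distance, q-value, overlap, list length, gene set, libraries and pairing.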

Additional observations from a re-analysis of the deposited data

How the results depend on the processing

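Of the recomputed values, 116 kept their direction, or stayed within their spread or within 1.5 times, 11 moved and 1 reversed. Part of the 116 could not come out otherwise. Leaving out a cKO library cannot change a WT fold, and a single WT fold always lies within the SD of the 2 around their mean. The tally is therefore no measure of how stable the folds are. With lists of equal length (3088 regions each) the mean difference in regions at the 10 genes, WT minus cKO, turned from 24.0 to -5.0, the genes with a WT-only region fell from 4 to 1 (Ebf2; the share of all genes fell from 16.6% to 4.99%), and the genes with a region fell to 1 in WT replicate 1 and 2 in WT replicate 2. On the same lists the regulators with a WT-only region numbered 4 and the effectors 0. In cKO replicate 1 the genes with a region numbered 3 at a distance of 20 kb and 3 when all RefSeq genes could take regions; the latter left 0 effectors. Leaving out 1 library at a time gave a difference of 5.0 (without WT replicate 2) to 43.0 (without WT replicate 1) regions, and 4 to 9 of the 10 genes with a WT-only region. It gave 12 to 17 regulators, 1 to 2 effectors and 1 to 3 HGF signalling genes, each highest without WT replicate 1. Leaving out a WT library loosens the definition of WT-only, as a region then needs to be in 1 WT list only. Requiring an overlap of 50% of the shorter region left 8 of the 9 member regions of both WT lists; the weak Ebf2 region at 79623 bp was not joined. With the replicate number as a block the difference was 24.0 (exact two-sided permutation p = 0.5, the smallest that 2 pairs allow). The labels do not say whether the numbers pair libraries. Deviations of same-numbered libraries correlated with r = 0.0192 across 9610 genes, which are not independent replicates. This value cannot show whether the libraries are paired. At the median background of each library, a fold of 3.01 to 3.53 was needed for a call, so lower folds were not detectable there.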
